A study of Mus musculus with 8 samples.

Results

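Genes for cholesterol synthesis, uptake control, storage and efflux were followed in mouse dendritic cells, the sentinels of the immune system that take up antigen when immature and mature on meeting a microbial signal. The 28 genes were taken by name: 16 enzymes of the synthesis pathway, 4 genes of the sterol-sensing machinery (Srebf2, Scap, Insig1 and Insig2), 3 genes of sterol transport, storage and hydroxylation (Stard4, Soat1 and Ch25h), the 2 liver X receptors (LXR; Nr1h2 and Nr1h3) and 3 LXR target genes (Abca1, Abcg1 and Mylip). The 28 were chosen with earlier results of these data known. All 28 were found among the 20887 genes that could be named on the array, on 38 probes, and 10 of them had more than 1 probe.

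Total RNA came from 8 samples of female C57BL/6 mice, each read on its own one-colour Agilent array. In the immature group (n = 4), bone marrow cells had been cultured with 10 ng/ml GM-CSF and IL-4 and were collected on day 6. In the LPS group (n = 4), such immature cells received 50 ng/ml lipopolysaccharide (LPS), a bacterial outer-membrane component, overnight and were collected on day 7. No day 7 samples without LPS were among those analysed, so LPS and the further night of culture cannot be told apart. All arrays lay on the same slide, with the immature samples in one row and the LPS samples in the other, so treatment and slide row cannot be told apart either. No label says whether replicates came from separate mice or cultures, and the p-values measure the spread between these samples only.

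Cells build cholesterol from acetyl-CoA through mevalonate, the isoprenoid diphosphates, squalene and lanosterol. When sterol in the endoplasmic reticulum runs low, Scap escorts the membrane-bound factor SREBP2, the product of Srebf2, to the Golgi for cleavage, and the released fragment switches on the synthesis enzymes, while the Insig proteins hold the pair back when sterol is plentiful. When oxysterols accumulate, LXR raise the transporters Abca1 and Abcg1, which load cholesterol onto lipoprotein particles, and Mylip, a ubiquitin ligase that limits lipoprotein uptake.

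Promoter sequences were matched from RefSeq (build GRCm38.p6) for 23 of the 28 genes, as the 250 bases before each annotated start. Fdps, Fdft1, Sqle, Stard4 and Abcg1 had no entry, so the enzyme with the largest fall, Fdps, was not searched. SREBP is known to act with the factor NF-Y, which binds CCAAT. On either strand, CCAAT lay in 12 of the 13 synthesis genes with an entry (92.3%), Acat2 being the exception, in 1 of the 4 LXR receptors and targets (Mylip), and in 37.5% of all 27025 genes in the table. The sterol response element letters TCACNCCAC lay upstream of 1 of the 23 genes searched (4.35%), Hmgcs1, at positions -137 to -129 from the start, and of 1.22% of all genes in the table (1.05% of its 32851 windows). The perfect direct repeat of AGGTCA with a spacing of 4 bases, the textbook LXR element, matched none of the 23 and 0.0148% of all genes. A variant of it, GGTTA and CGGTCA with the same spacing, whose letters were copied from the known Abca1 element, lay at positions -67 to -53 of Abca1 on the other strand and upstream of 4 genes in all (0.0148%), so its presence there restates the choice of letters. Matches to CCAAT shared no bases with the other matches.

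Below are windows of 5 genes. They are 3 synthesis enzymes lower with LPS, with 3 CCAAT matches each, the 1 higher enzyme and the LXR target with the largest change. Cyp51, which fell by 1.41 in log2 and held 1 match, is not printed. Capitals mark CCAAT or its reverse ATTGG, the TCACNCCAC match in Hmgcs1 and the LXR element in Abca1. The windows were chosen after the values were known. They lie at chr13:119690101-119690350 (plus strand, Hmgcs1), chr8:64733579-64733828 (minus strand, Msmo1), chr1:169969206-169969455 (minus strand, Hsd17b7), chr3:89454291-89454540 (plus strand, the first of the annotated starts of Pmvk) and chr4:53159896-53160145 (minus strand, Abca1).
Hmgcs1: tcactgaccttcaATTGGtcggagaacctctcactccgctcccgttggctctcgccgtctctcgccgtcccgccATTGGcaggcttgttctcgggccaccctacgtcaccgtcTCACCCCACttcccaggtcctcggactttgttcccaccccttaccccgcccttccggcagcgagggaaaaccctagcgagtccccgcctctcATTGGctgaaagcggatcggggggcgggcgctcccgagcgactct
Msmo1: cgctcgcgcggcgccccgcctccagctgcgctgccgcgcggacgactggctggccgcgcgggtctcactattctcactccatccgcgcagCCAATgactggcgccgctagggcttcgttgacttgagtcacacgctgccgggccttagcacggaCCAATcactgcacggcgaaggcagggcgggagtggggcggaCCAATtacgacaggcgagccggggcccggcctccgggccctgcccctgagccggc
Hsd17b7: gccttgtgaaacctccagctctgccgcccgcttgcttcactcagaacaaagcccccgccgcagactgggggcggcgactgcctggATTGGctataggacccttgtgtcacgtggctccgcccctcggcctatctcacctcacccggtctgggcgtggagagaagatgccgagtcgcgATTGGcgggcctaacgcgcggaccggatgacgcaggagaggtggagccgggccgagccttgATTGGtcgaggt
Pmvk: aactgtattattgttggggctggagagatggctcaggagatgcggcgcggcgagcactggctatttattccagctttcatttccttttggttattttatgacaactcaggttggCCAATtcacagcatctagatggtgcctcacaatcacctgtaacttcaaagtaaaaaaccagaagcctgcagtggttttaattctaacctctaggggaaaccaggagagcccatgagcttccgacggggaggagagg
Abca1: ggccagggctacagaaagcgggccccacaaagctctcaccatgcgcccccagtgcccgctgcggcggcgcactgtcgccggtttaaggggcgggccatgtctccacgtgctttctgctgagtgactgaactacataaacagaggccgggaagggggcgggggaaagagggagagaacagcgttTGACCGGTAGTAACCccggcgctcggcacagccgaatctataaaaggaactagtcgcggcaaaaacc

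The number of CCAAT matches differed widely among the lower enzymes: Mvk held 5, the 3 printed here 3 each, Mvd, Ebp and Nsdhl 2, Cyp51 and Lss 1, and the 3 starts of Dhcr7 0, 0 and 2. Pmvk held 1 at its first start, at positions -136 to -132, and none at its other start, within the range of the lower enzymes. These letter matches describe the windows and are not evidence of binding.

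**Figure D1:**
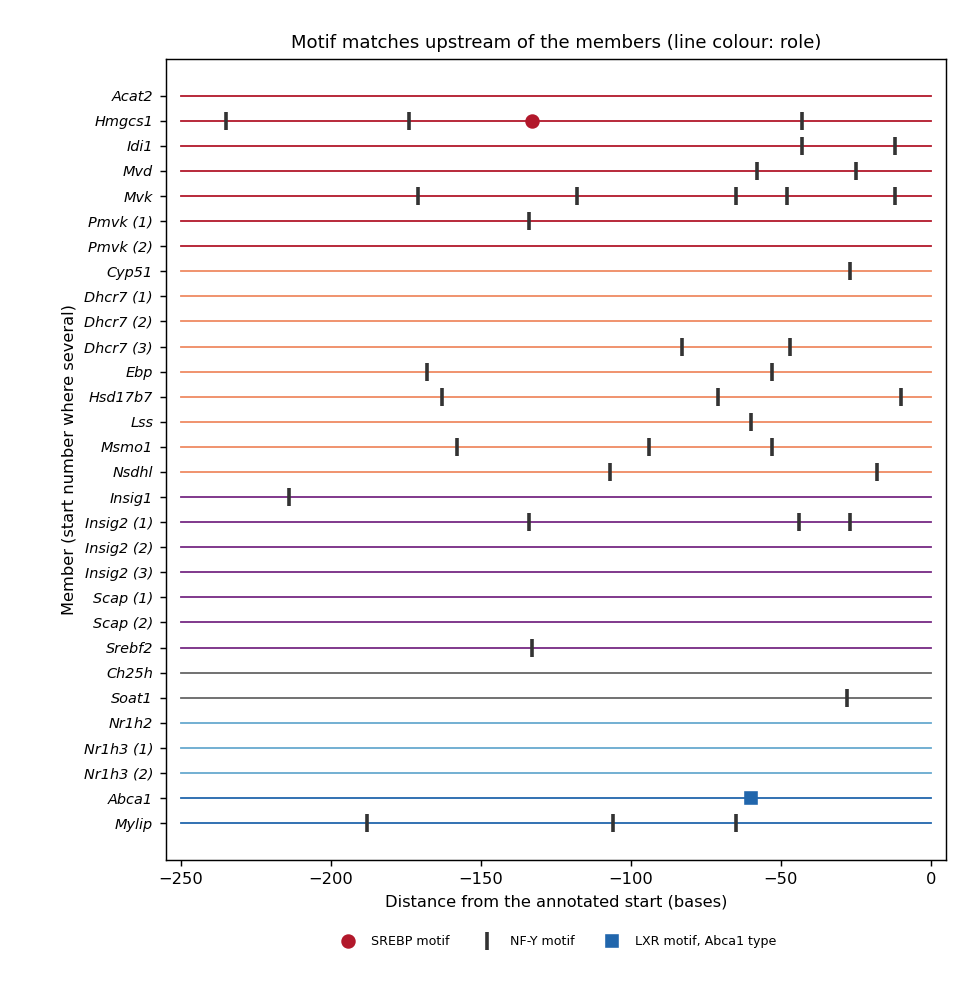
Positions of the motif matches in the 250 bases before each annotated start (x axis, bases from the start) of the 23 genes with a promoter entry (y axis, start number where a gene has several). Black ticks mark CCAAT, the circle TCACNCCAC and the square the Abca1-type LXR element, and line colours mark roles; most synthesis genes carry at least 1 tick, and the receptors Nr1h2 and Nr1h3 carry none.

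Each array held 59305 spots, of which 47.7% to 51.3% were well above background in the immature samples and 47.5% to 48.4% in the LPS samples, and no spot was saturated. Of 12707 genes tested with limma, 7122 (56%) had an adjusted p under 0.05 and are termed called. Of all tested genes, 24.6% were called lower with LPS and 31.4% higher, 8.74% were called and at least 2-fold lower, 9.16% were called and at least 2-fold higher, and in 52.3% the groups of 4 did not overlap. Of the called genes 56.1% were higher, a share that was 38.9% with median scaling and 35.3% with no scaling. All 10 dendritic cell markers examined were above background on all 8 arrays, but so were 9 of 10 macrophage markers and 8 of the 9 neutrophil markers with a probe, so detection does not set these cell types apart. Immature replicate 3 stood apart: its typical difference from the other immature arrays (scaled median absolute deviation of log2 values) was 0.246 to 0.367, against at most 0.202 between any other arrays of a group.

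Most enzymes of the synthesis pathway were lower in the LPS samples, and 1 was higher. Of the 16 synthesis enzymes 13 fell, 1 rose (Pmvk) and 2 did not pass the test (Acat2 and Idi1). The 13 lower genes stand beside the 24.6% of all tested genes that were lower, and the median log2 change was -0.69 against 0.06 over all tested genes. In 12 of the 16 the groups did not overlap (52.3% of all tested genes), in 11 of them with the LPS samples lower (22.2%), and 4 fell by at least 2-fold (8.74%). Of the 5 LXR receptors and targets 5 rose (31.4% of all tested genes), with a median of 0.69, which is the value of Mylip. With scaling to detected probes or spike-ins, or quantile normalization, 4 were called, and 3 with scaling to the array median or none. Probe by probe, 23 of the 37 tested probes of the 28 genes were lower and 9 were higher, so that 32 were called. Of all 25942 tested probes 6155 (23.7%) were lower and 12922 (49.8%) were called in either direction, the rest of these being higher. The excess over all probes lay on the lower side only. Without immature replicate 3, 14 synthesis enzymes were lower and 5 LXR genes higher, with medians of -0.76 and 0.91, the latter again the value of Mylip. In that fit 3620 of all 12946 tested genes were lower and 4283 higher, against 3127 and 3995 of 12707 with all arrays. With replicates 1 and 2 of each group, the closest immature arrays, averaged and counted as 1, 9 synthesis enzymes were lower. The genes called lower among all 12707 also fell, to 2361. Since whole cultures were measured, fewer cells of a type and less RNA per cell cannot be told apart.

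**Figure D2:**
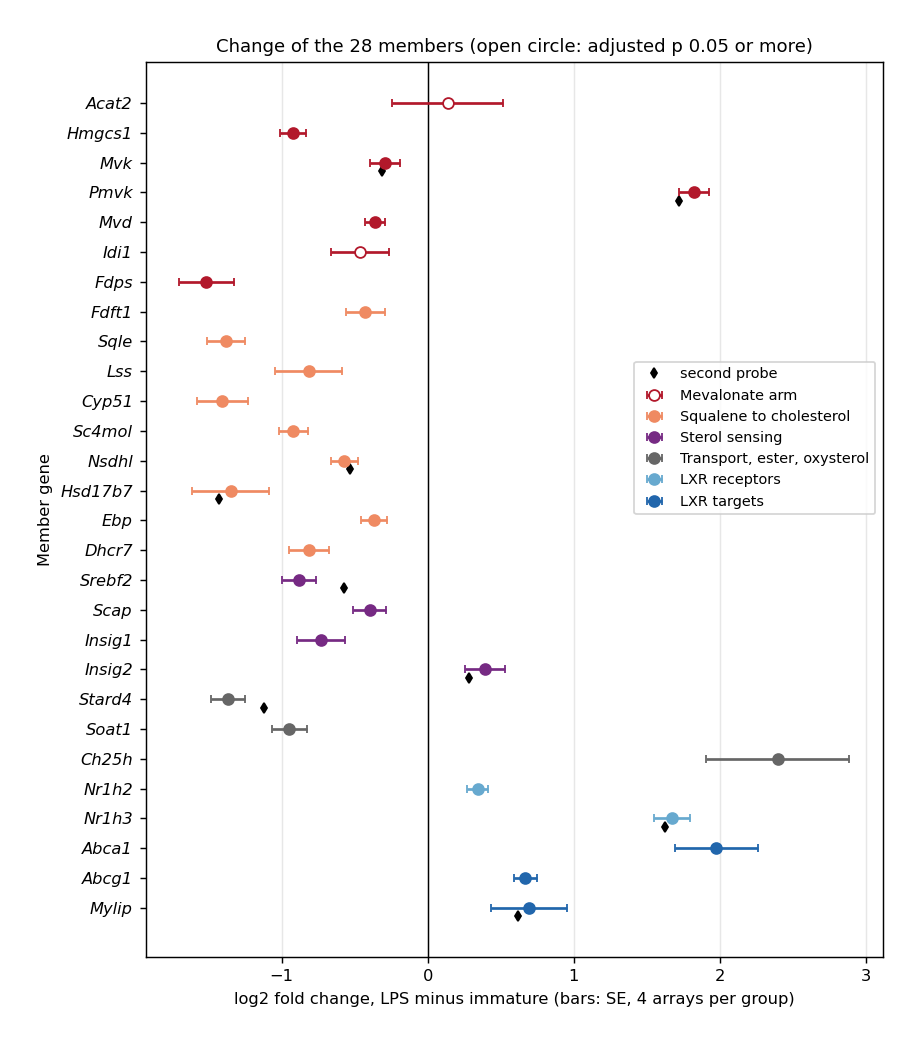
Change of each of the 28 genes (y axis, grouped by role in colour) as the log2 fold change, LPS minus immature (x axis), with bars for the SE over 4 arrays per group. Open circles did not pass the adjusted p of 0.05 and black diamonds are second probes that could be tested; synthesis genes lie left of 0 apart from Pmvk at 1.83 and Acat2 at 0.14, and LXR genes lie right of it.

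Levels are given in what follows as multiples of the array's own 75th percentile signal, in replicate order 1 to 4, and changes are log2 differences, LPS minus immature, with their SE. They compare samples for 1 probe at a time, since brightness differs between probes. In the mevalonate arm, Hmgcs1, which makes HMG-CoA, stood at 31.0, 27.8, 26.0 and 28.1 in the immature samples and 16.2, 15.2, 14.7 and 13.4 in the LPS samples. The LPS samples were all lower, with a wide gap between groups, a change of -0.92 ± 0.09 (adjusted p = 6.23e-05), or 1.89-fold. Fdps, the synthase of farnesyl diphosphate, read 36.0, 33.3, 22.02 and 38.8 in the immature samples and 12.9, 10.6, 11.9 and 9.37 in the LPS samples. Every LPS sample lay below every immature sample, and immature replicate 3 was the lowest of its group. The change of Fdps was -1.52 ± 0.19 (adjusted p = 2.45e-04), a level 2.86-fold lower.

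Pmvk, phosphomevalonate kinase, went the other way. Its brighter probe read 21.9, 21.4, 21.4 and 26.2 in the immature samples and 88.3, 79.6, 84.1 and 70.2 in the LPS samples. All LPS samples were far above all immature samples, at 3.55-fold, a change of 1.83 ± 0.10 (adjusted p = 4.53e-06). The second Pmvk probe read 11.2, 10.7, 10.3 and 12.4 in the immature samples and 42.6, 31.9, 38.9 and 34.2 in the LPS samples, with a probe-level change of 1.72. Both probes thus showed separate groups and a similar change. The enzymes before and after Pmvk in the pathway, Mvk and Mvd, were slightly lower.

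Mvd, which makes isopentenyl diphosphate, changed by -0.36 ± 0.07 (adjusted p = 0.00235), with groups that did not overlap. Mvk, mevalonate kinase, changed by -0.29 ± 0.10 (adjusted p = 0.0380) with overlapping groups, and the call was lost in 6 of the 8 fits that left out 1 array: adjusted p was 0.1004 without immature replicate 1, 0.0839 without immature 2, 0.0808 without immature 4, 0.0666 without LPS 2, 0.0800 without LPS 3 and 0.0913 without LPS 4. Idi1, the isomerase of isopentenyl diphosphate, read 19.1, 18.9, 11.3 and 16.4 in the immature samples and 14.3, 13.1, 10.0 and 9.85 in the LPS samples. Immature replicate 3 lay among the LPS samples, and the change of -0.46 ± 0.20 (adjusted p = 0.0783) did not pass. Without immature replicate 3 the Idi1 change was -0.63 with an adjusted p of 0.00956. Acat2, a thiolase that condenses acetyl-CoA, read 0.517, 0.445, 0.259 and 0.501 in the immature samples and 0.290, 0.294, 0.790 and 0.649 in the LPS samples. The Acat2 groups overlapped throughout, with LPS replicates 1 and 2 low and 3 and 4 high, and the difference was 0.14 ± 0.38 (adjusted p = 0.783).

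From squalene to cholesterol all 9 enzymes were lower (24.6% of all tested genes), and in 8 the groups did not overlap (22.2% of all tested genes were lower without overlap). Sqle, squalene epoxidase and a rate-limiting step, read 23.1, 20.8, 16.6 and 22.6 in the immature samples and 7.99, 7.32, 9.25 and 7.25 in the LPS samples. No LPS sample reached the lowest immature one, and Sqle fell 2.61-fold, a change of -1.38 ± 0.13 (adjusted p = 5.85e-05). Cyp51, the lanosterol demethylase, stood at 1.80, 1.57, 1.15 and 1.57 in the immature samples and 0.695, 0.462, 0.624 and 0.515 in the LPS samples. Its groups did not overlap, and the change was -1.41 ± 0.17 (adjusted p = 2.45e-04).

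Hsd17b7, a sterol ketone reductase, read 1.195, 1.11, 0.476 and 0.822 in the immature samples and 0.336, 0.301, 0.355 and 0.341 in the LPS samples. The second Hsd17b7 probe read 0.908, 0.992, 0.362 and 0.668 in the immature samples and 0.289, 0.208, 0.251 and 0.273 in the LPS samples. In both probes the LPS samples were all lower and immature replicate 3 lay nearest to them, and the changes were -1.35 ± 0.27 (adjusted p = 0.00288) and -1.43. Without immature replicate 3 the change of Hsd17b7 was -1.63.

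Msmo1, printed as Sc4mol in older annotation and a sterol methyl oxidase, read 30.8, 28.8, 22.8 and 27.7 in the immature samples and 14.9, 13.7, 14.996 and 14.3 in the LPS samples. The groups were apart, with a change of -0.92 ± 0.10 (adjusted p = 1.37e-04). Lss, which folds squalene epoxide into lanosterol, read 1.49, 1.53, 0.782 and 1.601 in the immature samples and 0.776, 0.610, 0.817 and 0.768 in the LPS samples. Immature replicate 3 fell among the LPS samples, so the groups overlapped, and the change was -0.82 ± 0.23 (adjusted p = 0.0161), or -1.06 without that array.

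Dhcr7, the last reductase before cholesterol, changed by -0.81 ± 0.14 (adjusted p = 0.00125). Nsdhl, a sterol dehydrogenase, changed by -0.57 ± 0.09 (adjusted p = 0.00109), with -0.53 at its second probe. The sterol isomerase Ebp had a smaller change of -0.37 ± 0.09 (adjusted p = 0.00839). Fdft1, squalene synthase, read 3.37, 3.16, 2.86 and 3.70 in the immature samples and 2.79, 2.32, 2.74 and 1.95 in the LPS samples. Its groups did not overlap but came close, with LPS replicate 1 just below immature replicate 3, and the change was -0.43 ± 0.14 (adjusted p = 0.0261). The Fdft1 call was lost without immature replicate 1 (adjusted p = 0.0615), immature 4 (0.0703), LPS 2 (0.0647) or LPS 4 (0.0508). The second Fdft1 probe was not well above background on any array and was not tested.

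**Figure D3:**
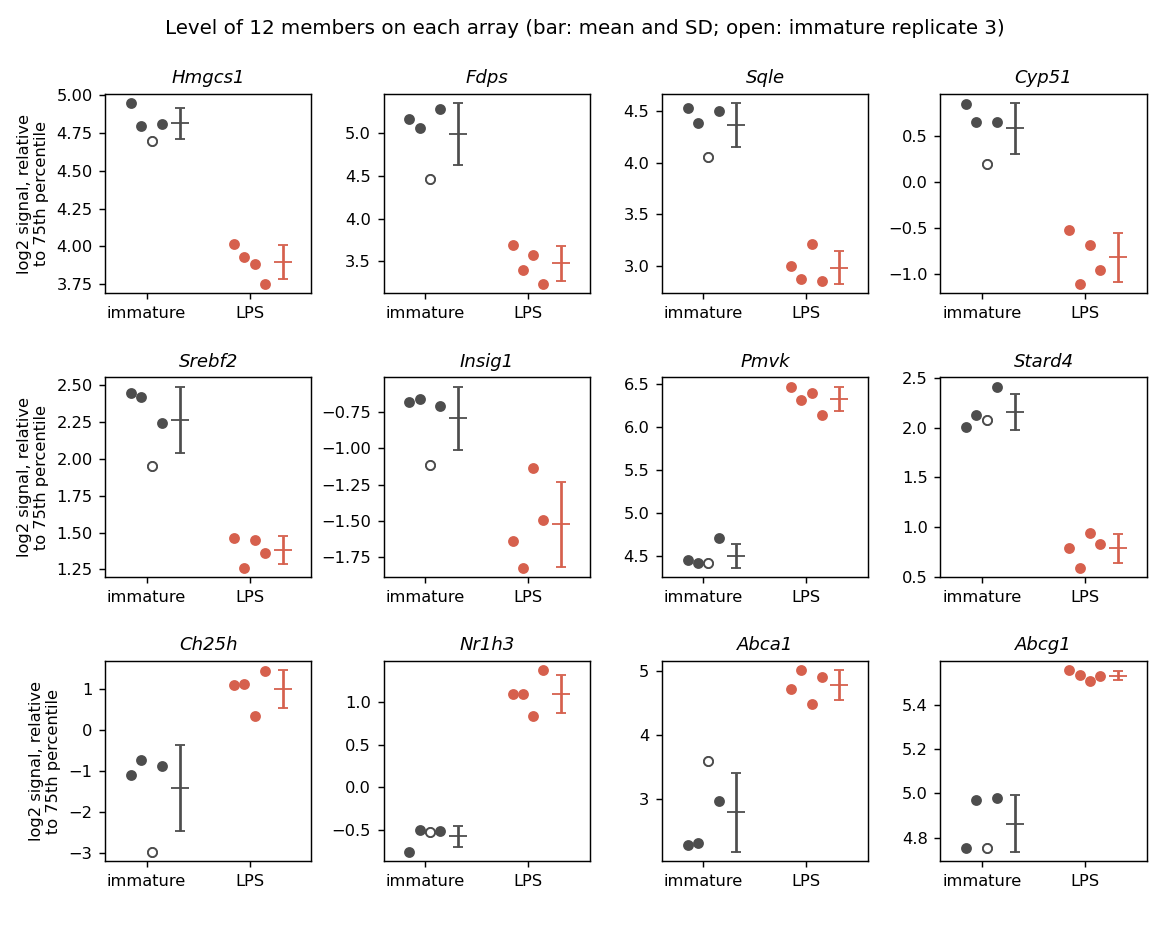
Level on each array for 12 genes, as log2 signal relative to the 75th percentile of the array (y axis, a separate scale in each panel), for the immature (grey) and LPS (red) groups on the x axis; crosses with bars are the mean and SD of 4 arrays, and the open circle is immature replicate 3. All 12 belong to the 22 of 28 genes whose groups did not overlap (52.3% of all tested genes), so the gap in each panel follows from the choice. In Hmgcs1, Fdps, Sqle, Cyp51, Srebf2, Insig1 and Abca1 the open circle is the immature point nearest to the LPS samples. In Ch25h it is the farthest, as it narrowly is in Pmvk and Abcg1, and in Stard4 and Nr1h3 it is neither.

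Of the 4 sterol-sensing genes 3 were lower (24.6% of all tested genes) and 1, Insig2, was higher (31.4%). Srebf2, encoding SREBP2, read 5.45, 5.35, 3.87 and 4.73 in the immature samples and 2.75, 2.39, 2.73 and 2.57 in the LPS samples at its brighter probe. The groups did not overlap, and the change was -0.88 ± 0.12 (adjusted p = 3.99e-04). The second Srebf2 probe changed by -0.57, so the probes differed in size but not in direction. Scap, the escort of SREBP2, changed by -0.40 ± 0.11 (adjusted p = 0.0153) without overlap. Insig1, itself an SREBP target, read 0.623, 0.632, 0.460 and 0.612 in the immature samples and 0.321, 0.282, 0.456 and 0.355 in the LPS samples. Immature replicate 3 was only just above LPS replicate 3, and the change was -0.73 ± 0.17 (adjusted p = 0.00581).

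Insig2, the isoform that does not depend on SREBP, read 2.16, 2.15, 3.25 and 2.65 in the immature samples and 3.18, 3.47, 3.19 and 3.36 in the LPS samples. Immature replicate 3 lay among the LPS samples. The change was 0.39 ± 0.14 (adjusted p = 0.0378), and at the second probe 0.29 with an adjusted p of 0.181. Leaving out any array but immature replicate 3 lost the call, with adjusted p values of 0.0975, 0.0970 and 0.0595 without immature 1, 2 and 4 and of 0.0662, 0.0881, 0.0635 and 0.0761 without LPS 1, 2, 3 and 4.

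Genes for moving, storing and hydroxylating sterol split. Stard4, a soluble sterol carrier and SREBP2 target, read 4.01, 4.37, 4.21 and 5.33 in the immature samples and 1.73, 1.501, 1.92 and 1.78 in the LPS samples. The LPS samples were all below the immature ones, a change of -1.37 ± 0.11 (adjusted p = 3.33e-05), with -1.12 at the second probe, where LPS replicate 1 overlapped the immature range. Soat1, which esterifies cholesterol for storage in droplets, read 2.04, 1.92, 2.46 and 2.11 in the immature samples and 1.04, 1.31, 0.963 and 1.11 in the LPS samples. The groups were apart, with a change of -0.95 ± 0.12 (adjusted p = 2.71e-04), and immature replicate 3 was the highest.

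Ch25h, which makes 25-hydroxycholesterol, an oxysterol known to block SREBP processing and to be induced by interferon, read 0.472, 0.608, 0.128 and 0.547 in the immature samples and 2.12, 2.15, 1.27 and 2.69 in the LPS samples. All LPS samples were above all immature samples, and immature replicate 3 was far below its group. The change was 2.40 ± 0.49 (adjusted p = 0.00344), 5.27-fold, and 1.88 without immature replicate 3.

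All 5 LXR receptors and targets were higher (31.4% of all tested genes). Nr1h3, LXR alpha, read 0.589, 0.706, 0.696 and 0.697 in the immature samples and 2.14, 2.13, 1.78 and 2.59 in the LPS samples. The groups were far apart, 3.19-fold, a change of 1.67 ± 0.12 (adjusted p = 1.68e-05), with 1.63 at the second probe. Nr1h2, LXR beta, read 28.8, 28.9, 31.8 and 27.6 in the immature samples and 38.2, 36.0, 36.5 and 37.5 in the LPS samples. Its groups did not overlap, but the change was small, 0.34 ± 0.07 (adjusted p = 0.00355), and was not called when arrays were scaled to their median (0.17, adjusted p = 0.112), left unscaled (0.13, 0.222) or scaled to the spike-in controls (0.26, 0.111).

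Abca1, the transporter that lipidates apolipoprotein A-I, read 4.92, 5.00, 12.1 and 7.90 in the immature samples and 26.3, 32.1, 22.4 and 29.8 in the LPS samples. Every LPS sample was above every immature sample, and immature replicate 3 was the highest of its group. The change was 1.98 ± 0.28 (adjusted p = 5.66e-04), 3.94-fold, and 2.24 without that array. Abcg1, which passes cholesterol to high-density lipoprotein, read 26.95, 31.4, 26.9 and 31.5 in the immature samples and 47.1, 46.4, 45.5 and 46.2 in the LPS samples. The LPS samples were close together and all higher, with a change of 0.67 ± 0.08 (adjusted p = 2.10e-04).

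Mylip read 2.19, 1.94, 4.06 and 2.50 in the immature samples and 5.09, 5.24, 3.14 and 3.51 in the LPS samples. Immature replicate 3 lay above LPS replicates 3 and 4, so the groups overlapped. The change of 0.69 ± 0.26 (adjusted p = 0.04997) was just under the threshold, and the probe-level adjusted p values were 0.0553 and 0.0710. The Mylip call was lost without immature replicate 1 (adjusted p = 0.115), immature 2 (0.123), immature 4 (0.0971), LPS 1 (0.122), LPS 2 (0.124) or LPS 4 (0.0586).

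Set side by side, the synthesis and LXR genes differed between the groups in opposite directions. The median over the 16 synthesis enzymes of the log2 difference from each gene's mean was 0.54, 0.42, 0.04 and 0.43 in the immature samples and -0.33, -0.43, -0.36 and -0.48 in the LPS samples. The median over the 5 LXR genes was -0.57, -0.74, -0.20 and -0.38 in the immature samples and 0.65, 0.69, 0.31 and 0.33 in the LPS samples. Neither list overlapped between groups on this measure, and in both, immature replicate 3 was the immature array nearest to the LPS group. Over 5 genes such a median is the value of a single gene, and not the same gene on every array. It was Abca1 on immature replicate 3, Abcg1 on LPS replicates 3 and 4, and elsewhere Mylip, whose own groups overlapped. The dendritic cell, macrophage, neutrophil and proliferation marker lists did not overlap on this measure either. The summed level of the 16 synthesis enzymes, in which bright probes weigh most and which includes Pmvk, did overlap, at 251, 239, 192 and 247 times the 75th percentile in the immature samples and 218, 203, 210.2 and 188 in the LPS samples. On that sum immature replicate 3 lay below LPS replicates 1, 2 and 3. Pmvk entered it at 21.4 to 26.2 in the immature samples and 70.2 to 88.3 in the LPS samples. The 7 mevalonate-arm enzymes, with Pmvk, summed to 99.3 to 130.8 and 118.8 to 149.9. The 9 enzymes from squalene to cholesterol, without it, did not overlap, at 92.3 to 119.8 and 67.9 to 72.1.

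Among the immature arrays, replicate 3 was the lowest for 16 of the 16 synthesis enzymes, against 40.1% of all tested genes and 58.4% of those called lower. For Pmvk, which rose with LPS, immature replicates 2 and 3 were nearly equal (log2 4.41655 and 4.41652). It was the highest for 3 of the 5 LXR genes, against 35.2% of all tested genes and 47.7% of those called higher. It was also the lowest immature array for 11 of 11 tested proliferation genes. The part of proliferation in the synthesis difference was not tested.

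**Figure D4:**
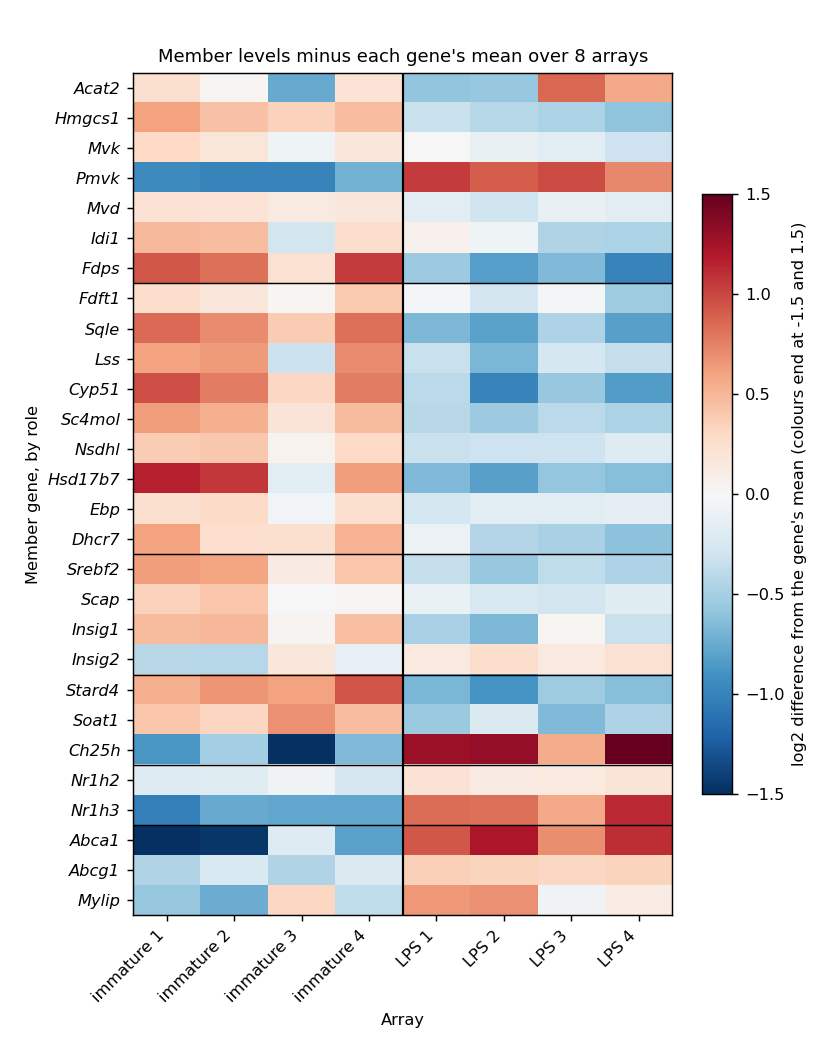
Level of each of the 28 genes (rows, by role, black lines between roles) on each of the 8 arrays (columns), as the log2 difference from the gene's mean over the arrays, with colours ending at -1.5 and 1.5. Synthesis and sensing genes are mostly red (higher) in the immature columns and blue in the LPS columns, Pmvk, Ch25h and the LXR genes are the reverse, and immature replicate 3 is paler than its neighbours in most synthesis rows.

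Markers of growth and of some other cells differed between the groups. Their counts stand beside the 24.6% of all tested genes called lower and the 31.4% called higher. Of 11 tested proliferation genes 10 were lower, and their summed level was 111 to 190.1 times the 75th percentile in the immature samples and 50.2 to 69.2 in the LPS samples. Of 9 tested neutrophil and granule genes 9 were lower, with summed levels of 744 to 886 and 249.7 to 455. Of 9 tested macrophage markers 5 were lower and 1 higher (405 to 481 and 346 to 407; Vsig4 was above background on no array), and of 10 dendritic cell markers 6 were lower and 2 higher (1005 to 1085 and 678 to 784). Some markers of B cells, T cells and stromal cells were also measured. Cd79b, Cd3e, Lck and Col1a2 were above background on all 8 arrays, and Pax5, Col3a1 and Pdgfra on none. The summed level of the 2 tested B cell markers was 0.713 to 2.57 in the immature samples and 0.517 to 1.48 in the LPS samples, and neither was called. That of the 3 tested T cell markers was 0.932 to 1.31 and 1.47 to 1.74, with Lck 3.31-fold higher (adjusted p = 1.05e-04). Cd3d, above background on no LPS array, was 3.10-fold lower against the dimmest signal above background (fitted adjusted p = 9.69e-04). The summed level of the 2 tested stromal markers was 0.0814 to 0.259 and 0.447 to 1.09. Dcn, above background on 1 of 4 immature arrays, was 10.04-fold higher against the dimmest signal above background (fitted adjusted p = 9.24e-04). The T cell and stromal sums did not overlap between groups, as was so for 52.3% of all tested genes taken singly. These 3 genes are named after their values were seen. The part of these markers in the sterol gene differences was not tested.

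Related genes outside the 28 were taken from 7 further lists, in which Faxdc2 and Apoc2 had no named probe and Abcg5, Abcg8 and Cyp7b1 were too dim to test. Each list's counts are to be read against the 24.6% of all tested genes that were lower and the 31.4% that were higher. Among 7 other synthesis genes tested, 5 were lower (71.4%), 1 was higher (14.3%) and the median change was -0.80. Lbr, a sterol reductase and nuclear envelope protein, changed by -2.18 ± 0.13 (adjusted p = 5.21e-06), while the sterol reductase Tm7sf2 changed by 0.34 ± 0.09 (adjusted p = 0.0131), a call lost with median scaling (adjusted p = 0.172).

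Of 9 genes that activate SREBP or govern enzyme turnover 1 was lower (11.1%, below the 24.6% of all tested genes), 1 was higher and 7 did not pass. Srebf1, whose products drive fatty acid synthesis, differed by 0.01 ± 0.13 (adjusted p = 0.957). Erlin1, a protein of the endoplasmic reticulum membrane, rose by 0.85 ± 0.12 (adjusted p = 5.03e-04).

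Of 16 uptake and trafficking genes 4 were lower (25.0%) and 6 higher (37.5%), close to the 24.6% and 31.4% of all tested genes, with a median of 0.07 against 0.06. Npc2, which hands cholesterol out of the lysosome, rose by 1.45 ± 0.10 (adjusted p = 9.82e-06) and Lrp8, a lipoprotein receptor, by 1.02 ± 0.22 (adjusted p = 0.00423), whereas Tmem97, a regulator of cholesterol trafficking, changed by -0.89 ± 0.20 (adjusted p = 0.00619).

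The fatty acid arm of the SREBP programme was lower at 8 of 13 genes (61.5%, against 24.6% of all tested genes) and higher at 2 (15.4%, against 31.4%), with a median of -0.44. Fasn, fatty acid synthase, changed by -2.26 ± 0.26 (adjusted p = 1.81e-04). Fads2, a desaturase, was above background on 1 of 4 LPS arrays (fitted adjusted p = 0.0126). Set against the dimmest signal of any probe above background, it was 2.34-fold lower, which is not a strict minimum. With normexp background correction the change was -1.29 for Fasn and -0.42 for Fads2, which then did not pass (adjusted p = 0.0530). Me1, malic enzyme, rose by 1.51 ± 0.25 (adjusted p = 0.00117).

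Of 11 other known LXR targets and partners tested 3 were lower (27.3%), 3 higher (27.3%) and 5 did not pass, shares near the 24.6% and 31.4% of all tested genes, with a median of -0.32. Pltp, phospholipid transfer protein, rose by 0.74 ± 0.09 (adjusted p = 2.67e-04), while Lpl, lipoprotein lipase, changed by -1.03 ± 0.12 (adjusted p = 1.60e-04) and Nceh1, a cholesteryl ester hydrolase, by -0.93 ± 0.12 (adjusted p = 3.25e-04). Apoe, the apolipoprotein of macrophage efflux, differed by -0.98 ± 0.54 (adjusted p = 0.157) with overlapping groups. That difference was -0.49 without immature replicate 3.

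Of 5 tested oxysterol genes 2 were lower and 2 higher (40.0% each, against 24.6% and 31.4%). Cyp27a1, which makes 27-hydroxycholesterol, was above background on 2 of 4 LPS arrays. It was 2.53-fold lower against the dimmest signal above background (fitted adjusted p = 0.00290), and its change was -0.43 after normexp correction. Gpr183, a receptor for oxysterols derived from the Ch25h product, changed by -1.34 ± 0.13 (adjusted p = 7.31e-05), and Cyp46a1, cholesterol 24-hydroxylase, by 0.66 ± 0.11 (adjusted p = 0.00128). Among 11 genes that use isoprenoids 2 were lower (18.2%), 3 higher (27.3%) and 6 did not pass: Icmt, which methylates prenylated proteins, changed by 0.71 ± 0.13 (adjusted p = 0.00199), Pggt1b, a subunit of a protein prenyltransferase, by 0.40 ± 0.09 (adjusted p = 0.00580), which was lost with median scaling (adjusted p = 0.107), and Pdss1, of coenzyme Q synthesis, by -1.30 ± 0.28 (adjusted p = 0.00474).

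**Figure D5:**
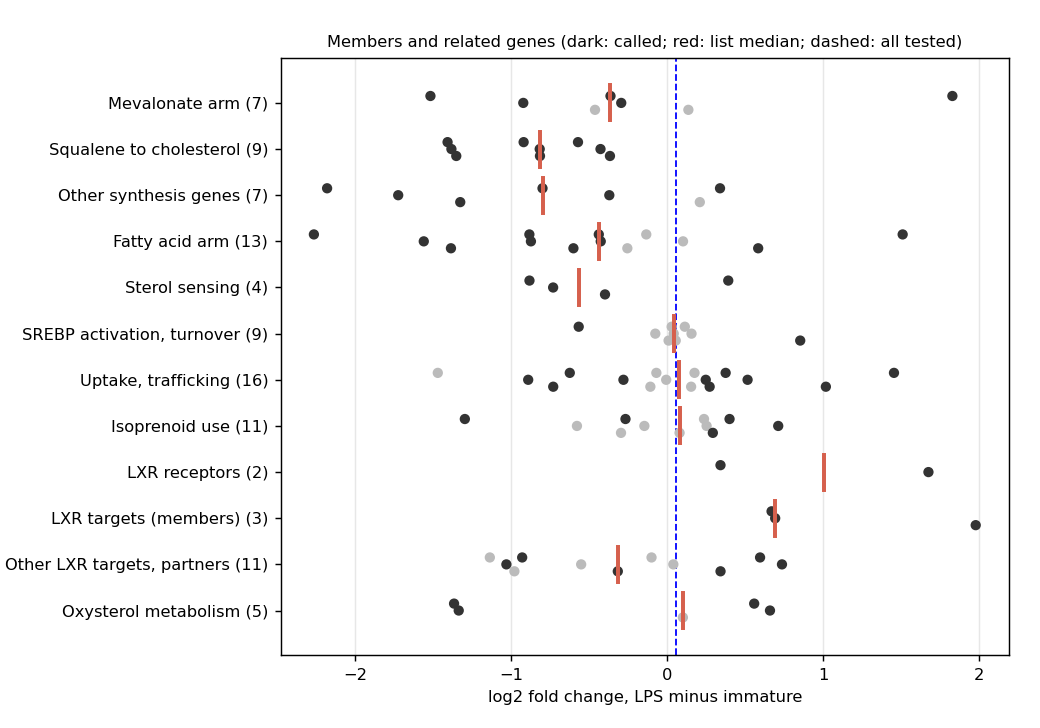
Log2 fold change, LPS minus immature (x axis), of each tested gene in 12 lists of sterol and lipid genes (y axis, number tested in brackets); dark points are called, red bars mark list medians and the dashed line is the median of all tested genes, 0.06. The synthesis lists have medians from -0.36 to -0.82, SREBP activation and uptake have medians near 0, and the medians are 1.01 for the LXR receptors, 0.69 for the LXR targets among the 28 and -0.32 for the other LXR targets.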

How the data were processed

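RNA was labelled with Cy3 and scans were quantified in Agilent Feature Extraction 11.0.1.1, per the submitters' processing notes. The deposited intensity is the processed signal of each spot, background-subtracted per the file headers, with no scaling between arrays found; deposited flags (other columns) mark spots above background, saturated or outlying. Here, outlier-flagged and control spots were left out, log2 signals were reduced by each array's 75th percentile, spots of a probe averaged, and probes named by transcript accession through a RefSeq table (GRCm38.p6): 27509 of 55681 probes matched. A gene was represented by its brightest probe and tested if either group had that probe flagged above background on each of its 4 arrays (28 of 28 members, and 37 of their 38 probes). The groups were compared with limma 3.58.1 (R 4.3.3; lmFit and eBayes, two-sided, Benjamini-Hochberg over 12707 genes, threshold 0.05), tested on simulated data. The probe-level fit covered 25942 probes, of which 23.7% were called lower and 49.8% called in all. Where a probe was not above background, its signal was replaced by the lowest signal of any probe above background on that array, or kept where higher. A fold change given this way is not a strict minimum, since a probe's own detection limit can be higher.

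The 28 genes and all lists were chosen with earlier results of these data known. All 28 are named. Of each other list the text names the 2 called genes that changed most in the commoner direction (in a tie, the direction with the largest single change) and the 1 largest in the other, plus Srebf1 and Apoe; some genes the rule named are not reported here. The planned rule for printing promoters (a change of at least 1 with TCACNCCAC or the perfect LXR repeat) selected none, and the windows, CCAAT and the Abca1-type motif were chosen after the values were seen. Alternatives covered scaling, background correction (normexp, offset 50), filter, probe choice, variance moderation, replicate block, averaging of replicates 1 and 2, and leaving out each array. The number of arrays limits the precision.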

Additional observations from a re-analysis of the deposited data

Results flagged for a closer look

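In 6 of 56 groups of 4 arrays examined among the 28 genes, 1 array lay far from the other 3 (by Dixon's test at its 95% critical value), where chance flags about 1 in 20 groups. Values are log2 signals relative to the array's 75th percentile. Immature replicate 3 accounted for 4 of these: Lss stood at -0.36 there against 0.58 to 0.68 on the other immature arrays. Ebp stood at 5.52 against 5.81 to 5.85. Insig1 stood at -1.12 against -0.71 to -0.66. Ch25h stood at -2.96 against -1.08 to -0.72. Pmvk stood at 4.71 in immature replicate 4 against 4.42 to 4.46, which narrows its difference from the LPS group. Nr1h3 stood at -0.76 in immature replicate 1 against -0.52 to -0.50, which widens it.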

How the results depend on the processing

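Of the 28 genes, 18 kept their direction and their side of the threshold in all 21 alternatives, among them Hmgcs1, Fdps, Sqle, Cyp51, Srebf2, Stard4, Pmvk, Ch25h, Nr1h3, Abca1 and Abcg1. The count of genes called rose to 10772 with no filter on dim probes, where more genes were tested, and leaving out 1 array gave 6191 to 7903 genes, 11 to 14 synthesis enzymes lower and 4 to 5 LXR genes higher. Among the other 10 genes, Insig2 was not called under any of the 5 other scalings, nor Mylip under 4 of them, Mvk and Nr1h2 missed the threshold with spike-in scaling (adjusted p = 0.0628 and 0.111), and Idi1 passed under 4 other scalings. Lss, Ebp and Scap missed it only with replicates 1 and 2 averaged (adjusted p = 0.0836, 0.0609 and 0.0707). LXR genes called higher were 3 with scaling to the array median and 3 with no scaling. Scaling to the median or none moved the median of all genes to -0.11 and -0.15, and the share of calls that were higher from 56.1% to 38.9% and 35.3%, with 47.9% on detected probes, 48.0% on spike-ins and 50.5% after quantile normalization. With replicate number as a block, 6613 genes, 13 synthesis enzymes and 4 LXR genes were called. Under the block Idi1 passed (adjusted p = 0.0213) while Fdft1 (0.0686), Insig2 (0.0631) and Mylip (0.121) did not, but same-numbered samples did not all deviate together (correlations 0.19, 0.02, 0.05 and -0.10), so numbers were not taken as pairs, and 2 immature and 1 LPS array of 4 correlated best with their own number. With replicates 1 and 2 of each group averaged, 9 synthesis enzymes were called lower and 4 LXR genes higher. Of all 12707 tested genes 2361 were then lower and 3066 higher. Uncalled differences changed sign: Acat2 was -0.035 with median scaling, -0.073 unscaled and -0.13 to 0.36 with 1 array left out. Srebf1 was -0.16 with median scaling, -0.20 unscaled, -0.062 on detected probes, -0.075 on spike-ins, -0.025 after quantile normalization, -0.052 with replicates 1 and 2 averaged and -0.091 to 0.13 with 1 array left out. The cause of these changes was not tested.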
